A study of Arabidopsis thaliana with 8 samples.

Results

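The genes described here are the tau class (GSTU1 to GSTU28) and the phi class (GSTF2 to GSTF14) of the glutathione transferases of Arabidopsis thaliana. They were chosen by gene identifier and make up 41 of the 24279 genes listed in the files, 28 of them tau and 13 phi. Translated from the reference annotation, the proteins of a pair had a median identity of 40.6% within the tau class and 42.0% within the phi class, against 23.6% between the classes, so the class labels matched the sequences. Of the 41 genes, 40 were listed in at least 1 library and 37 had enough counts to be tested.

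Messenger RNA levels were measured by sequencing in roots of 6-d-old seedlings raised in nutrient solution at pH 5.0. There were 4 groups of 2 libraries: wild type Col kept for 6 h with 0 µM AlCl3, wild type with 10 µM AlCl3, the mutant line cml24-2 with 0 µM and cml24-2 with 10 µM. The line carries a mutation of CML24 (AT5G37770), a calmodulin-like calcium-binding protein, and the series asks about the part of CML24 in aluminium (Al) resistance. All groups shared the age, the solution and its pH, and about 500 seedlings were treated, so a library is a pool of many roots. A single mutant line was used, and its type of allele is not stated in the labels. Nor do they state that both libraries of each group are from different cultures. The p-values therefore measure only the spread between these samples, which may be technical.

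Glutathione transferases join the tripeptide glutathione to reactive or foreign molecules, or bind such molecules without changing them. Plants then move many of the conjugates into the vacuole. The tau and phi classes are the large plant classes of the family. Many members are known for rapid induction by herbicide safeners, oxidised lipids, salicylate, auxin and metals, and basic leucine zipper proteins of the TGA group, which bind TGACG motifs, are among their known regulators.

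The 8 libraries held 11743433 to 12188917 expected counts, which puts 3 counts at 0.246 to 0.255 CPM. The wild-type controls stood furthest apart: of 35 members with a mean of at least 1 FPKM there, 6 differed more than 1.5-fold between the 2 libraries (GSTU8, GSTU11, GSTU12, GSTU22, GSTF6 and GSTF7). No member did so in wild type with Al or in cml24-2 without Al, and 3 did in cml24-2 with Al (GSTU17, GSTU20 and GSTU28). For CML24 itself edgeR gave a log2 difference of cml24-2 from wild type of 1.08 without Al (adjusted p = 0.079) and 1.45 with Al (adjusted p = 0.045), so the mutant was not marked by a lower level. The root markers COBL9, PIN2, CASP1, SHR, WOX5 and SMB were present in all libraries, and 5 of the 6 were lower with Al in each genotype. Without Al, COBL9 was lower (-1.25 on the log2 scale) and SHR higher (0.55) in cml24-2 than in wild type (edgeR adjusted p = 0.0023 and 0.0052). With Al, WOX5 (1.31) and SHR (0.41) were higher in cml24-2 and CASP1 (-0.88) lower (edgeR adjusted p = 0.049, 0.025 and 0.0076). PIN2 and SMB were not called between genotypes. The summed level of 11 shoot photosynthesis markers, none of them at 0 in any library, was 83.0 and 115.6 FPKM in wild type without Al, 41.8 and 18.6 with Al, 137.5 and 187.6 in cml24-2 without Al, and 82.5 and 96.5 with Al. Of those 11, 9 fell with Al in wild type and 8 in cml24-2, and 6 were higher in cml24-2 than in wild type with Al. Over all genes tested, edgeR called 25.9% lower with Al in wild type and 23.3% in cml24-2. Between genotypes it called 7.41% higher and 5.5% lower in cml24-2 without Al, and 4.63% and 3.39% with Al. The part of such tissue differences in the results was not tested, and in whole roots fewer cells of a type cannot be told apart from less RNA per cell.

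Levels are given below as the deposited FPKM (fragments scaled to transcript length and library size), a scale on which genes of different length can be compared. Fold changes come from edgeR's quasi-likelihood test on the rounded expected counts of all 8 libraries. A gene is called higher or lower where its p, adjusted by Benjamini-Hochberg across 20262 tested genes, is under 0.05.

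A few phi genes made up most of the family's message in roots without Al. The summed level of all 41 genes was 2838 ± 242 FPKM (SD, n = 2) in wild type and 2803 ± 73.4 FPKM in cml24-2, and the phi class held 81.3% and 82.5% of it. GSTF9 (AT2G30860), linked to redox balance, had the highest level over all libraries, with 812.81 and 857.19 FPKM in wild type and 742.25 and 760.86 FPKM in cml24-2 without Al. Its tandem neighbour GSTF10 (AT2G30870) followed with 481.94 and 569.79 FPKM in wild type and 477.81 and 528.94 FPKM in cml24-2. In wild type without Al these 2 genes and GSTF8 together held 61.9% of the summed level.

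**Figure D1:**
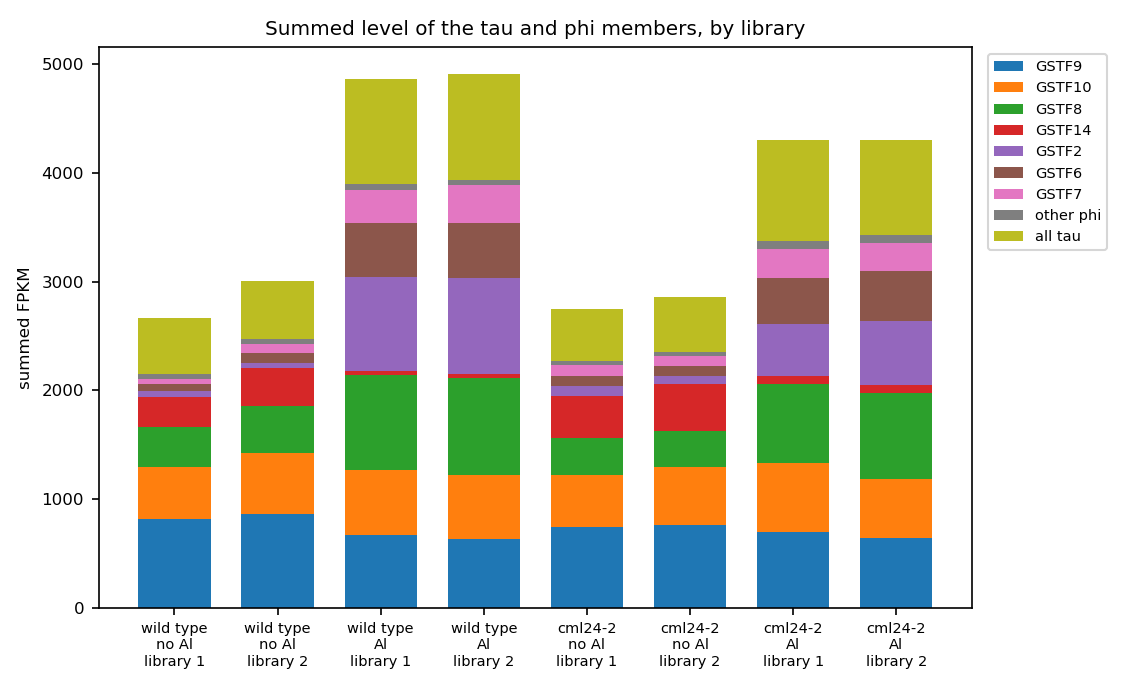
Summed FPKM of the tau and phi members in each library (vertical axis, linear), split into 7 phi genes, the other phi genes and all tau genes. The 4 libraries with Al reach 4302.9 to 4913.6 FPKM and the 4 without Al 2666.6 to 3008.6 FPKM, and with Al the GSTF14 band narrows while those of GSTF2, GSTF6, GSTF7 and GSTF8 widen.

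With Al the summed level was 4890 ± 32.8 FPKM in wild type, 1.72 times that without Al, and 4304 ± 1.04 FPKM in cml24-2, 1.54 times. The tau sum went from 530 ± 14.1 to 972 ± 3.94 FPKM in wild type and from 492 ± 13.3 to 902 ± 34.0 FPKM in cml24-2. The phi sum went from 2308 ± 228 to 3918 ± 28.8 FPKM in wild type and from 2312 ± 60.0 to 3401 ± 35.1 FPKM in cml24-2. No library with Al overlapped a library without Al in any of these sums. The order of the genes changed as well, since GSTF8 and GSTF2 led in wild type with Al, with 18.1% and 17.9% of the summed level, ahead of GSTF9 with 13.2%.

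Al changed most members in both genotypes. In wild type, 22 of the 37 tested members rose and 7 fell, while edgeR's calls took in 25.1% of all genes as higher and 25.9% as lower. The median log2 fold change of the 37 was 1.19, against 0 over all genes tested. In cml24-2, 21 rose and 6 fell, where 21.3% of all genes were called higher and 23.3% lower, and the median was 1.02 against -0.005. Among the 25 tested tau genes, 16 rose and 4 fell in wild type and 15 and 4 in cml24-2. Among the 12 tested phi genes, 6 rose in each genotype, while 3 fell in wild type and 2 in cml24-2.

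**Figure D2:**
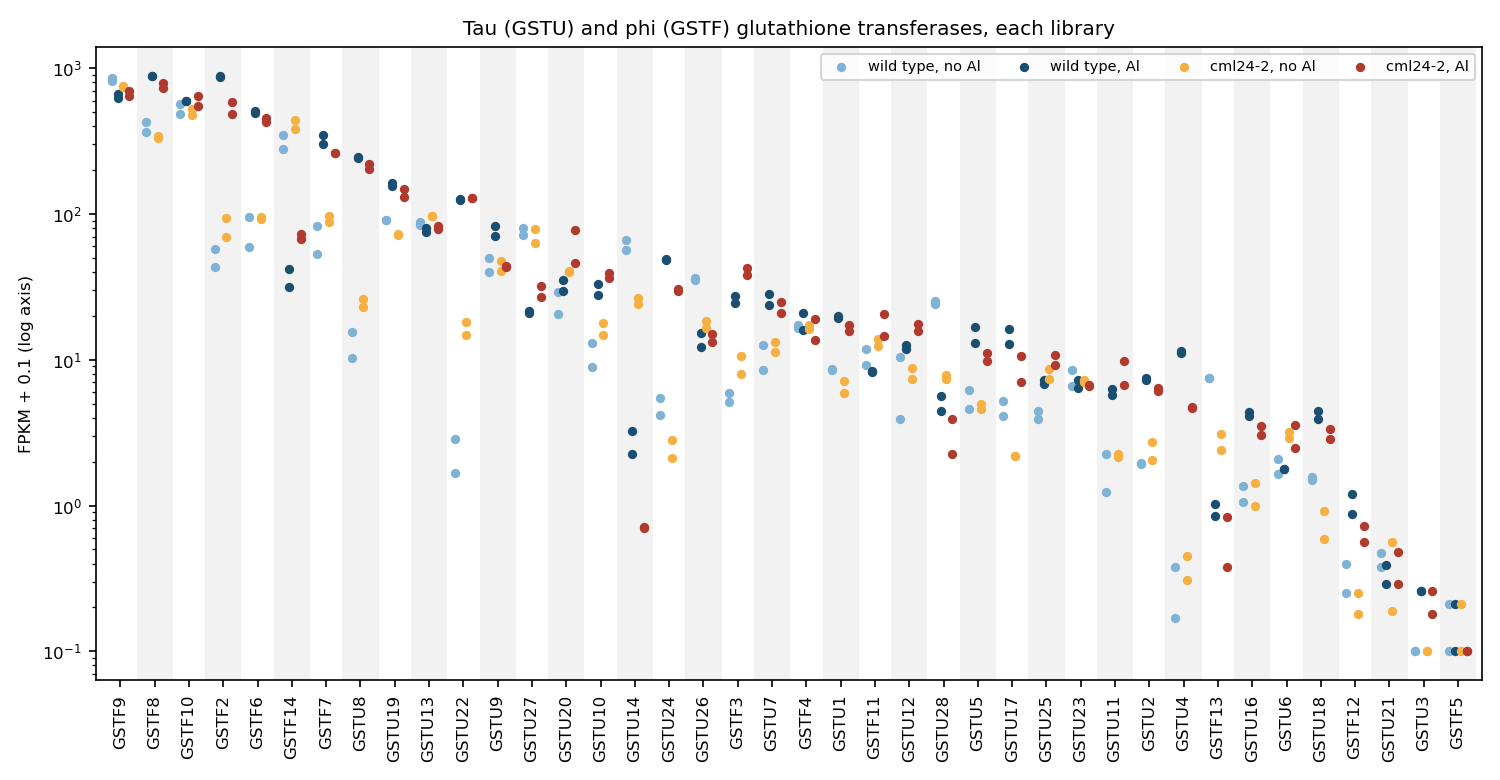
FPKM plus 0.1 (log axis) of the 40 listed members in each of the 8 libraries, ordered by their mean level, with colours for genotype and Al. The points of GSTU22, GSTU8, GSTU4, GSTF2 and GSTU24 with Al stand far above those without Al, and those of GSTU14, GSTF14 and GSTF13 far below.

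Across the 37 tested members, 20 rose in both genotypes and 5 fell in both, and none was called in opposite directions. The genes that rose in both were GSTU1, GSTU2, GSTU4, GSTU5, GSTU7, GSTU8, GSTU10, GSTU11, GSTU16 to GSTU19, GSTU22, GSTU24, GSTF2, GSTF3, GSTF6, GSTF7, GSTF8 and GSTF12. Those that fell in both were GSTU14, GSTU27, GSTU28, GSTF13 and GSTF14. GSTU9 and GSTU25 were called higher, and GSTU26 and GSTF9 lower, in wild type and not in cml24-2, while GSTU12 was called higher and GSTU13 lower in cml24-2 and not in wild type, and the difference between genotypes (interaction) was called for none of these 6. GSTU12 lost its cml24-2 call under 8 of 17 alternatives, among them each fit without 1 of the 4 cml24-2 libraries (adjusted p = 0.089 to 0.16), and its wild-type rise of 0.81 passed with wild-type control replicate 2 left out (1.73, adjusted p = 0.00012) and with the replicate block (0.86, adjusted p = 0.047). No call was made in either genotype for GSTU6, GSTU20, GSTU23, GSTF4, GSTF10 and GSTF11. The 2 sets of log2 fold changes, which come from different libraries, had a Pearson r of 0.95 and a Spearman rho of 0.97 across the 37 genes, which share these libraries and are not independent replicates. Of the 20 common rises, 13 were larger in wild type than in cml24-2, some by little, as for GSTF8 (1.19 and 1.14). This count was not made over all genes. The median interaction of the 37 was 0.00 against -0.021 over all genes, and edgeR called it for GSTU22 alone.

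**Figure D3:**
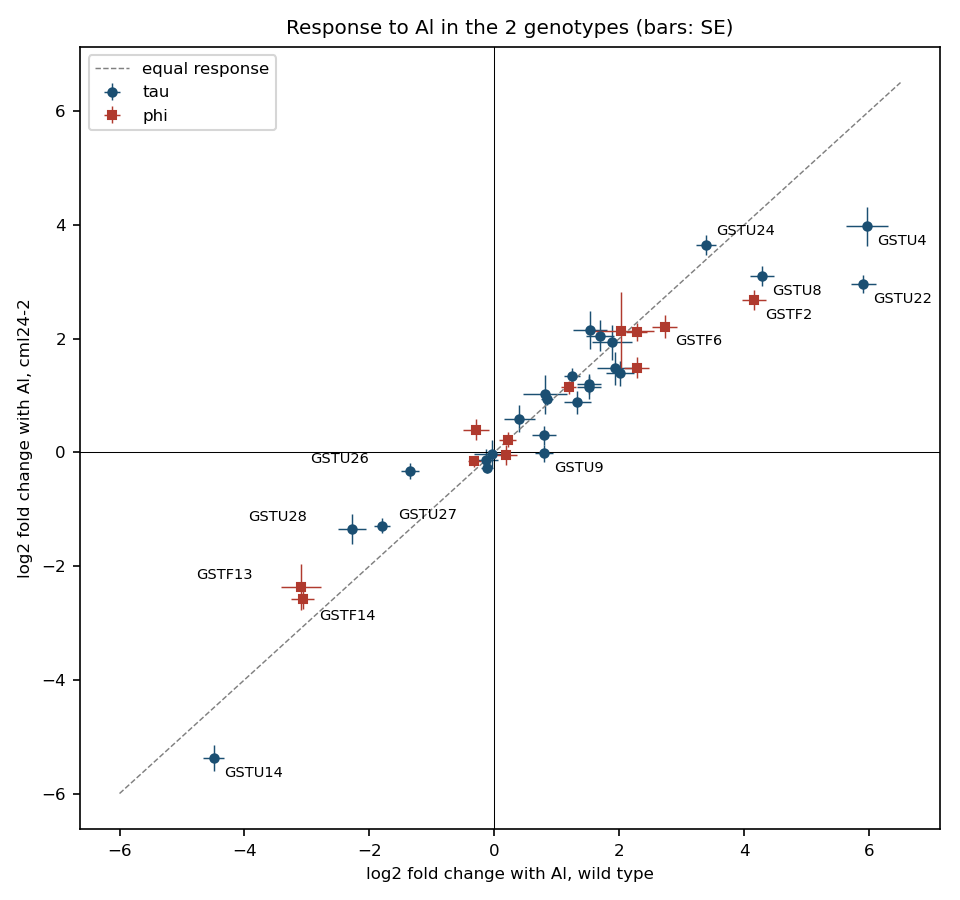
Log2 fold change with Al in wild type (horizontal axis) and in cml24-2 (vertical axis) of the 37 tested members, with SE bars and the line of equal response. The points lie along the line from GSTU14 at -4.49 and -5.38 to GSTU4 at 5.96 and 3.97, with GSTU22, GSTU4, GSTF2 and GSTU8 below it.

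GSTU22 (AT1G78340), a tau gene on the minus strand at chr1:29472845-29474003 (build TAIR10.1), had one of the largest rises. Without Al it was at 1.56 and 2.74 FPKM in wild type and at 14.75 and 17.94 FPKM in cml24-2. With Al it was at 125.46 and 127.15 FPKM in wild type and at 128.25 and 129.48 FPKM in cml24-2. The genotypes were therefore far apart without Al and close together with it, while all libraries with Al lay above all without. The log2 fold change with Al was 5.90 (SE 0.20, edgeR adjusted p = 2.8e-07) in wild type and 2.96 (SE 0.16, adjusted p = 2.2e-06) in cml24-2.

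GSTU8 (AT3G09270, chr3:2848183-2849686, minus strand) reached the highest tau level in the study. It was at 10.23 and 15.41 FPKM in wild type without Al, 244.05 and 245.31 FPKM with Al, 23.05 and 25.85 FPKM in cml24-2 without Al and 220.56 and 204.23 FPKM with Al. Libraries with and without Al did not overlap, and those of the genotypes did not overlap either at 0 or at 10 µM. With Al, however, the difference between genotypes was not called (-0.22 on the log2 scale, edgeR adjusted p = 0.45). The log2 fold change was 4.28 (SE 0.19, edgeR adjusted p = 6.7e-07) in wild type and 3.10 (SE 0.18, adjusted p = 3.3e-06) in cml24-2.

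GSTU4 (AT2G29460, chr2:12626478-12627891, minus strand) was scarce without Al, with 4 and 1 counts in the wild-type libraries and 5 and 3 in those of cml24-2. With Al it had 155 and 157 counts (11.06 and 11.45 FPKM) in wild type and 65 and 64 counts (4.66 and 4.6 FPKM) in cml24-2. Its log2 fold changes, 5.96 (SE 0.34, edgeR adjusted p = 2.2e-06) and 3.97 (SE 0.35, adjusted p = 3.7e-05), rest on those few control counts, and the first was 7.13 and 5.34 without wild-type control replicates 1 and 2. GSTU24 (AT1G17170), which can act on the explosive TNT, went from 4.06 and 5.39 to 48.5 and 48.85 FPKM in wild type. In cml24-2 it went from 2.7 and 2.01 to 29.43 and 30.57 FPKM, below wild type in both conditions. Its log2 fold changes were alike, at 3.39 (SE 0.16) and 3.64 (SE 0.18).

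**Figure D4:**
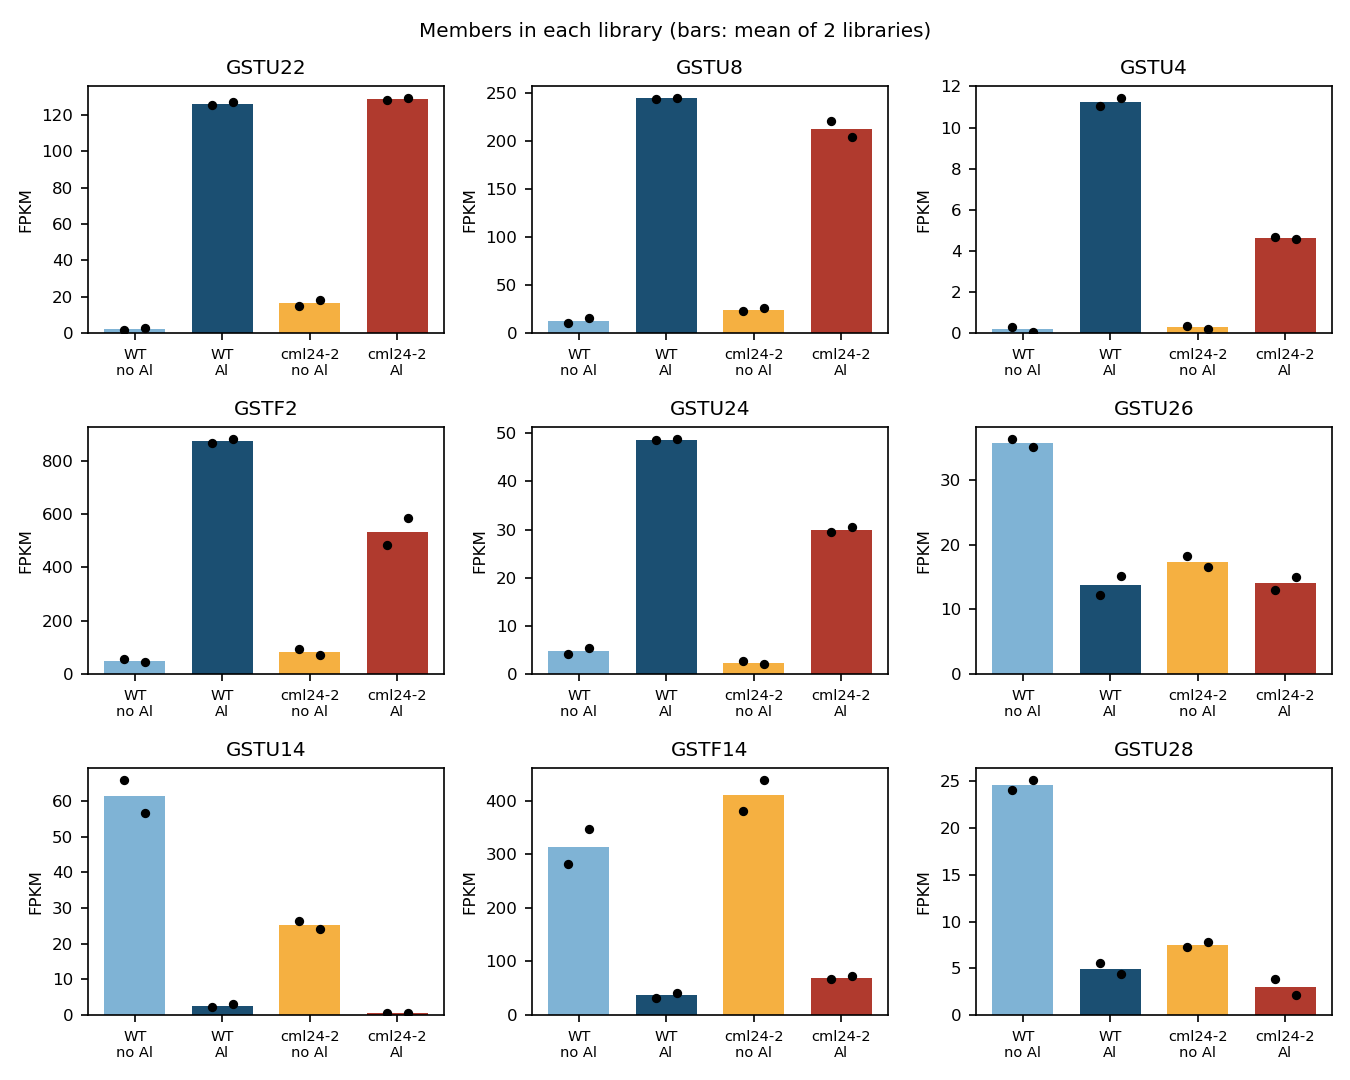
FPKM of 9 members in each library (points, linear axes that differ between panels), with bars for the mean of 2 libraries. Without Al, GSTU22 is at 2.15 FPKM on average in wild type and 16.35 FPKM in cml24-2, while with Al the genotypes are close, GSTU4 and GSTU24 are lower in cml24-2 with Al, and GSTU14, GSTU26 and GSTU28 are lower in cml24-2 without Al.

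Among the phi genes, the largest rise in wild type was that of GSTF2 (AT4G02520), which binds auxin-transport inhibitors and the defence compound camalexin. It was at 57.1 and 43.2 FPKM in wild type without Al and 866.18 and 882.23 FPKM with Al, and at 93.86 and 69.74 FPKM and 482.65 and 586.05 FPKM in cml24-2. The libraries of the genotypes did not overlap in either condition, with cml24-2 above wild type without Al and below it with Al. The log2 fold change was 4.16 (SE 0.19, edgeR adjusted p = 7.5e-07) in wild type and 2.68 (SE 0.18, adjusted p = 8e-06) in cml24-2. Its close relative GSTF3 (AT2G02930) went from 5.01 and 5.8 to 27.32 and 24.24 FPKM in wild type and from 7.83 and 10.51 to 38.12 and 42.28 FPKM in cml24-2, where it was higher in both conditions.

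GSTF6 (AT1G02930), an enzyme of camalexin synthesis, went from 58.83 and 94.83 to 496.32 and 506.22 FPKM in wild type and from 95.11 and 92.27 to 425.93 and 457.18 FPKM in cml24-2. GSTF7 (AT1G02920), its pathogen-induced neighbour, went from 53.2 and 83.2 to 301.19 and 347.97 FPKM and from 96.12 and 87.6 to 262.15 and 260.64 FPKM. The log2 fold changes of GSTF6 were 2.73 (SE 0.20) and 2.21 (SE 0.20), and those of GSTF7 2.28 (SE 0.20) and 1.49 (SE 0.19), with edgeR adjusted p-values of 0.00033 or less. The proteins of GSTF6 and GSTF7 were 93.8% identical and those of GSTF2 and GSTF3 92.5%, and their coding sequences 94.7% and 94.5%. In all 8 libraries the expected counts of these 4 genes held reads split between near-identical copies, so the share of each pair's reads given to each gene is uncertain.

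GSTF8 (AT2G47730), a long-studied stress-inducible phi gene, rose from an already high level. It was at 363.47 and 430.01 FPKM in wild type without Al and 881.66 and 887.68 FPKM with Al, and at 342.43 and 332.54 FPKM and 726.2 and 789.82 FPKM in cml24-2. The log2 fold change was 1.19 (SE 0.12, edgeR adjusted p = 5e-05) in wild type and 1.14 (SE 0.12, adjusted p = 9.3e-05) in cml24-2. GSTF12 (TT19, AT5G17220), which carries anthocyanins toward the vacuole, had few counts: 2 and 4 without Al and 10 and 14 with Al in wild type, 1 and 2 and then 8 and 6 in cml24-2. In cml24-2 the ratio was 4.73 (95% Clopper-Pearson counting interval 1.32 to 25.7, counting error only). Its calls were lost with DESeq2 (adjusted p = 0.16 in wild type and 0.2 in cml24-2). The cml24-2 call was lost under 8 of 13 alternatives, among them no low-count filter (edgeR adjusted p = 0.056). It was also lost in each fit without 1 of the 4 cml24-2 libraries (log2 fold change 1.74 to 2.66). The wild-type call was lost without control replicate 1 (1.57) or Al replicate 2 (1.73).

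The other common rises were smaller or of scarcer genes. GSTU2, GSTU11 and GSTU16 had log2 fold changes of 2.01, 1.88 and 1.93 in wild type and 1.39, 1.93 and 1.48 in cml24-2. GSTU17 (AT1G10370, also ERD9), known from drought and light responses, went from 5.13 and 4.01 to 12.66 and 16.14 FPKM in wild type and from 2.08 and 2.09 to 6.99 and 10.59 FPKM in cml24-2. Its tandem neighbour GSTU18 went from 1.47 and 1.4 to 3.83 and 4.32 FPKM and from 0.82 and 0.49 to 3.25 and 2.76 FPKM. Both genes thus rose in each genotype and lay lower in every cml24-2 library than in every wild-type library of the same condition. By edgeR, however, the genotypes differed only for GSTU17 without Al (adjusted p = 0.041), and 7 of 17 other settings or left-out libraries did not keep this. For GSTU17 with Al (adjusted p = 0.073) and GSTU18 without Al (0.089) or with Al (0.31), edgeR called no genotype difference. GSTU19 (AT1G78380), a herbicide-conjugating enzyme and the most abundant tau gene in wild type without Al, went from 90.32 and 91.13 to 154.58 and 162.26 FPKM in wild type, and from 72.63 and 71.84 to 149.4 and 130.81 FPKM in cml24-2. GSTU1, GSTU5, GSTU7 and GSTU10 rose by 1.24 to 1.51 on the log2 scale in wild type and by 0.88 to 1.34 in cml24-2.

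GSTU14 (AT1G27140, chr1:9427804-9428914, plus strand) fell furthest. It was at 65.92 and 56.7 FPKM in wild type without Al and 2.15 and 3.16 FPKM with Al, and at 26.38 and 24.14 FPKM and 0.6 and 0.61 FPKM in cml24-2. Every library with Al lay below every library without, and cml24-2 lay below wild type in each condition. The log2 fold change was -4.49 (SE 0.17, edgeR adjusted p = 3.5e-07) in wild type and -5.38 (SE 0.23, adjusted p = 8.8e-07) in cml24-2, where 7 and 7 counts were left. GSTU13 (AT1G27130), the adjacent gene with 79.3% protein identity and a known role in indole glucosinolate metabolism, stayed between 74.9 and 97.42 FPKM in all 8 libraries. Its log2 fold change was -0.12 in wild type, not called, and -0.28 (SE 0.09, adjusted p = 0.026) in cml24-2, a call lost without any 1 of the 4 cml24-2 libraries (adjusted p = 0.073 to 0.14).

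GSTF14 (AT1G49860, chr1:18458526-18459969, plus strand) was among the 4 most abundant members without Al. It fell from 281.16 and 347.98 to 31.38 and 42.03 FPKM in wild type and from 381.19 and 439.2 to 66.91 and 72.94 FPKM in cml24-2. No library with Al came near one without. The log2 fold change was -3.07 (SE 0.18, edgeR adjusted p = 2.7e-06) in wild type and -2.58 (SE 0.18, adjusted p = 9.1e-06) in cml24-2.

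The other 3 members that fell in both genotypes were GSTF13 (AT3G62760), GSTU28 (AT1G53680) and GSTU27 (AT3G43800). GSTF13 went from 7.45 and 7.4 to 0.92 and 0.75 FPKM in wild type and from 3.02 and 2.29 to 0.28 and 0.74 FPKM in cml24-2. GSTU28 went from 24.02 and 25.16 to 5.51 and 4.37 FPKM and from 7.24 and 7.82 to 3.84 and 2.15 FPKM. GSTU27 went from 79.96 and 71.57 to 20.8 and 21.58 FPKM and from 62.94 and 78.55 to 26.9 and 31.85 FPKM. GSTF13 and GSTU28 were thus lower in cml24-2 than in wild type without Al, while the GSTU27 libraries of the genotypes overlapped there. The log2 fold changes in wild type were -3.10, -2.28 and -1.80, and in cml24-2 -2.37, -1.35 and -1.29. The GSTF13 value in cml24-2 rests on 3 and 8 counts with Al, and was -3.22 without cml24-2 Al replicate 2 and -1.29 with limma on log2(FPKM + 1), called in both.

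The 2 most abundant members of the controls moved little. GSTF9 had 666.25 and 627.83 FPKM in wild type with Al and 693.05 and 640.42 FPKM in cml24-2 with Al. By edgeR its log2 fold changes were -0.32 (SE 0.10, adjusted p = 0.021) and -0.16 (adjusted p = 0.22). The first call was lost when wild-type control replicate 2 was left out (adjusted p = 0.062), and without wild-type Al replicate 1 (0.054) or 2 (0.11). GSTF10, known for binding the receptor kinase BAK1, had 596.52 and 594.55 FPKM and 641.23 and 547.39 FPKM with Al, and its log2 fold changes of 0.21 and 0.22 were not called, although the first passed with wild-type control replicate 2 left out (0.36, adjusted p = 0.043).

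Neighbouring members differed in their response in several arrays. By RefSeq gene order, 27 of the 41 members lie in 8 tandem arrays, in which neighbouring members are at most 3 genes apart, all on chromosomes 1 and 2. In the array of GSTU19 to GSTU23, GSTU22 rose by 5.90 on the log2 scale in wild type, GSTU19 by 0.84, and GSTU20 and GSTU23 had uncalled values of 0.40 and -0.14. In the array of GSTU24 to GSTU26, GSTU24 rose by 3.39, GSTU25 rose by 0.79 (adjusted p = 0.0076) and GSTU26 fell by 1.35 (edgeR adjusted p = 5.5e-05). The array of GSTU1 to GSTU7 held 5 genes that rose in both genotypes, GSTU6 with log2 fold changes of -0.04 and -0.03, and GSTU3, which was too scarce to test. In the phi array GSTF6 and GSTF7 rose, and GSTF4 stayed between 13.52 and 20.98 FPKM in all 8 libraries.

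**Figure D5:**
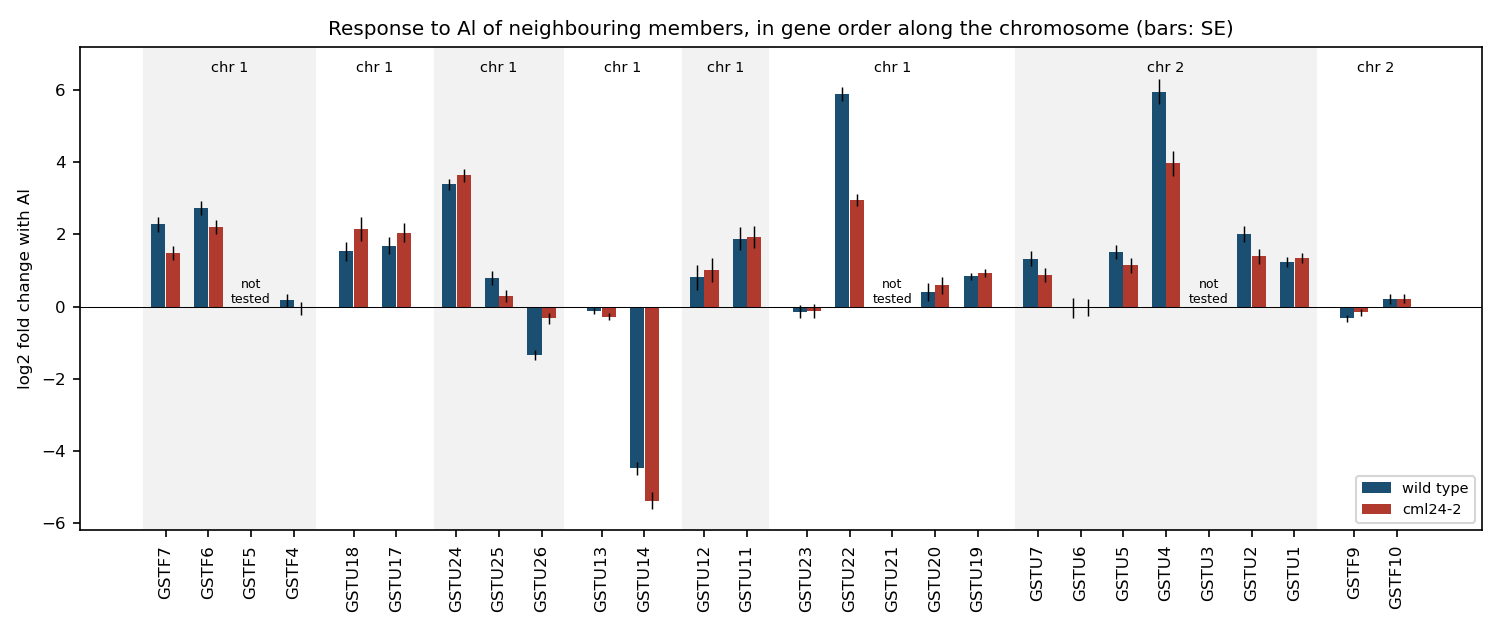
Log2 fold change with Al (bars, with SE lines) of the 27 members in tandem arrays, in gene order, for wild type and cml24-2. Neighbours differ, as GSTU22 at 5.90 beside GSTU23 at -0.14 in wild type and GSTU13 at -0.12 beside GSTU14 at -4.49 show.

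Of the 20 genes that rose in both genotypes, 9 hold the TGACG core bound by TGA factors in their promoter window, and stretches of 5 of these are shown. GSTU22 and GSTU24 share a further run of bases, GSTU1 and GSTU7 hold the motif more than once, and GSTF8 has the highest level of the 9, while GSTU5, GSTU11, GSTU19 and GSTF3 are not shown. The stretches were picked after the values were seen, are taken from RefSeq's TAIR10.1 genome, and read 5′ to 3′ on the gene's strand, with TGACG and its reverse complement CGTCA in capitals. The stretches lie at chr1:29474056-29474105 (minus strand) for GSTU22, chr1:5869359-5869408 (plus) for GSTU24, chr2:12632581-12632630 (minus) for GSTU1, chr2:12618926-12618975 (minus) for GSTU7 and chr2:19556118-19556167 (plus) for GSTF8, all upstream of the annotated start.
GSTU22: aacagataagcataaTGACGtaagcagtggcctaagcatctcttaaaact
GSTU24: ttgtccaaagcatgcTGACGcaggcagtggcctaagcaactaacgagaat
GSTU1: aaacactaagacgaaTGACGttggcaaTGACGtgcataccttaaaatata
GSTU7: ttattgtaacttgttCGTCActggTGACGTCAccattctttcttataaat
GSTF8: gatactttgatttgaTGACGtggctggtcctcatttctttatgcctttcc

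The longest run shared by the windows of GSTU22 and GSTU24 was the 15 bases gcagtggcctaagca just after the motif. Because the run was picked as shared, its presence in these 2 windows was fixed in advance. It was in no other of the 27443 windows of nuclear protein-coding genes. Any given run of that length is rare, so this count does not test for a shared element. Windows reached from 250 bases before to 50 after each RefSeq gene start, and both strands were searched. TGACG was present in the windows of 17 of the 41 members (41.5%), of 9 of the 20 that rose in both genotypes (45.0%) and of 2 of the 5 that fell in both (40.0%), against 23.1% of all windows. The W-box TTGACC or TTGACT, bound by WRKY factors, was present in 21 members (51.2%), 13 of the 20 (65.0%) and 2 of the 5, against 32.4% of all. Both motifs hold TGAC, but a single TGAC cannot match both, and their matches can share only an edge base. The G-box CACGTG was in the windows of 3 members (7.68% of all windows hold it), the GCC-box GCCGCC in 4 (2.57%) and the mitochondrial dysfunction motif in 2 (2.14%). The windows of GSTU8, GSTU4, GSTF2, GSTF6 and GSTF7 held no TGACG. A match describes letters in a window and does not show a bound site.

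Without Al, 5 members were higher and 6 lower in cml24-2 than in wild type, and 26 were not called. The share of all genes was 7.41% higher and 5.5% lower, and the median log2 difference of the members was 0.05 against 0.016. GSTU22 stood 2.96 higher on the log2 scale (SE 0.21, edgeR adjusted p = 0.00016), followed by GSTU25 (0.99, from 3.84 and 4.36 FPKM in wild type to 7.24 and 8.58 in cml24-2), GSTU8 (0.97), GSTF3 (0.80) and GSTF2 (0.75). GSTU28 was 1.66 lower on that scale (adjusted p = 0.0019), GSTF13 1.44, GSTU14 1.23, GSTU17 1.09, GSTU26 0.99 and GSTU24 0.96 lower. GSTU26 (AT1G17190) was at 36.36 and 35.08 FPKM in wild type and at 18.27 and 16.5 FPKM in cml24-2. The calls of GSTU14, GSTU22, GSTU26 and GSTU28 held under all 17 alternative settings or left-out libraries, and the other 7 were each lost under 2 to 7 of them. Those calls ended without cml24-2 control replicate 1 for GSTF2 (adjusted p = 0.15), GSTF13 (0.051) and GSTU17 (0.16), and without replicate 2 for GSTU8 (0.063), GSTU25 (0.072), GSTU24 (0.11), GSTU17 (0.15), GSTF3 (0.13) and GSTF13 (0.079). They also ended without wild-type control replicate 1 for GSTF3 (0.1) and GSTU17 (0.1), and without replicate 2 for GSTU24 (0.062) and GSTF2 (0.057). The calls of GSTU17 and GSTF2 also ended without either wild-type Al library (0.051 to 0.057). Without wild-type control replicate 2, GSTU10, GSTU12, GSTU20, GSTF6, GSTF7 and GSTF14 were called higher in cml24-2 (adjusted p = 0.0025 to 0.033).

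With Al, 4 members were higher and 5 lower in cml24-2, where 4.63% of all genes were called higher and 3.39% lower, and the median log2 difference was -0.21 against -0.003. The higher members were GSTF11 (1.07, SE 0.20, edgeR adjusted p = 0.017), GSTU20 (0.93, adjusted p = 0.048), GSTF14 (0.92) and GSTF3 (0.63). GSTF11 (AT3G03190) and GSTU20 (AT1G78370) are both placed in aliphatic glucosinolate synthesis. GSTF11 was at 8.34 and 8.15 FPKM in wild type and 20.41 and 14.53 FPKM in cml24-2, and GSTU20 at 34.96 and 29.58 FPKM and 77.41 and 46.16 FPKM, with the cml24-2 libraries far apart. The lower members were GSTU14, with a log2 difference of -2.12, GSTU4 (-1.29), GSTU9 (-0.80), GSTF2 (-0.72) and GSTU24 (-0.71). GSTU9 (AT5G62480) was at 82.5 and 70.06 FPKM in wild type with Al and 43.01 and 44.08 FPKM in cml24-2 with Al, while without Al both genotypes lay between 39.6 and 49.69 FPKM. None of these 9 calls held under all 17 alternatives, and each was lost without at least 3 of the 4 libraries compared, taken 1 at a time, with adjusted p-values up to 0.27. In those 4 fits 0 to 2 members were called higher and 0 to 1 lower. GSTU20 lost its call under 11 of them. The shoot markers also differed here, with 6 of 11 higher in cml24-2, and so did the root markers WOX5, SHR and CASP1. The part of these tissue differences in the member values was not tested.

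By edgeR's interaction test, the responses themselves differed between genotypes for 1 member, and DESeq2 called 3. The test compares the change with Al in cml24-2 with that in wild type, and over all genes it called 0.0987% higher and 0.202% lower. GSTU22 had an interaction of -2.95 on the log2 scale (SE 0.26, edgeR adjusted p = 0.0026), with a rise in all libraries of both genotypes that was smaller in cml24-2, and the call held under all 16 alternatives. With all 8 libraries fitted, no member had a called interaction above 0 by edgeR or DESeq2. At an unadjusted p under 0.05 by edgeR, 4 lay above 0 (GSTU26, GSTU27, GSTU28 and GSTF11) and 7 below. The share of all genes at that threshold was not counted. The next values were -1.99 for GSTU4 (adjusted p = 0.30), -1.47 for GSTF2 (0.052) and -1.19 for GSTU8 (0.089), and 1.02 for GSTU26 (0.081), which fell from 36.36 and 35.08 to 12.19 and 15.2 FPKM in wild type and had 13.04 and 14.99 FPKM in cml24-2 with Al. DESeq2 called GSTF2 (-1.46, adjusted p = 1.1e-07) and GSTU8 (-1.17, adjusted p = 0.00071) beside GSTU22, and edgeR called GSTF2 with RLE size factors (0.048) and with no low-count filter (0.049). In edgeR, GSTF2 passed with wild-type control replicate 1 left out (-1.61, adjusted p = 0.0086) or with replicate 2 left out (-1.31, 0.025), GSTU8 likewise (-0.85, 0.03 and -1.54, 0.0027), GSTU26 without replicate 1 (1.06, 0.032) and GSTU9, GSTF6 and GSTF7 without replicate 2 (0.03, 0.014 and 0.0096). The interaction and the comparisons between genotypes use the same libraries as the Al responses, so they are not independent of them.

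Genes of the wider glutathione pathway were counted from lists that had been chosen with earlier results of these data known. With Al in wild type, the genes called were 6 of 12 other glutathione transferases, 4 of 8 genes of conjugate turnover and 3 of 6 of sulfate uptake, shares close to the 25.1% higher plus 25.9% lower of all genes. In cml24-2 the shares were 58.3%, 25.0% and 83.3%, where 21.3% of all genes were higher and 23.3% lower. The count of conjugate turnover genes thus lay near or under the background. These shares pool both directions, and among the other glutathione transferases more genes rose than fell. Of 12 other glutathione transferases, 5 rose and 1 fell with Al in wild type and 6 rose and 1 fell in cml24-2. GSTZ1 and GSTZ2 of the zeta class, whose known role is in tyrosine breakdown, had log2 fold changes of 1.38 and 1.97 in wild type and 1.27 and 2.31 in cml24-2. Of 4 genes of glutathione synthesis and recycling, 1 rose in wild type and 2 in cml24-2, where 25.1% and 21.3% of all genes were called higher. Glutathione reductase GR1, which regenerates glutathione, rose by 1.15 and 1.02 on the log2 scale, while GR2 was not called (-0.02 and 0.00). The synthesis gene GSH1 passed in cml24-2 alone (0.30, edgeR adjusted p = 0.024) and GSH2 in neither. Of 9 genes of conjugate turnover and transport, 8 could be tested, and GGT2 was too scarce. Of the 8 tested, 3 rose and 1 fell in wild type and 2 rose in cml24-2. The conjugate pump ABCC3 (1.65 and 0.80) and ABCC2 (0.75 and 0.82) rose in both genotypes.

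Of 6 genes of sulfate uptake and reduction, which supply the cysteine of glutathione, 1 rose and 2 fell in wild type and 3 rose and 2 fell in cml24-2. Over all genes, 25.1% were called higher and 25.9% lower in wild type, and 21.3% and 23.3% in cml24-2. The uptake transporters SULTR1;1 and SULTR1;2 fell by 2.99 and 2.42 on the log2 scale in wild type and by 2.52 and 2.73 in cml24-2, and the reductase APR3 rose by 1.06 and 1.04. Of 8 TGA and SCL14 pathway factors, 5 rose in wild type and 4 in cml24-2, where 25.1% and 21.3% of all genes were called higher. They included TGA3 (0.72 and 0.62) and TGA5 (0.50 and 0.62), both TGA factors, and the NAC factors ANAC032 (2.55 and 1.62) and ANAC102 (1.89 and 1.26), the last 2 also higher in cml24-2 without Al by 0.97 and 0.88 (edgeR adjusted p = 0.011 and 0.033).

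Of 9 other enzymes of the xenobiotic response, 7 could be tested. CYP81D11 had at most 3 counts in any library and AKR4C9 was listed in none. Of the 7 tested, 6 rose with Al in wild type, and in cml24-2 4 rose and 1 fell. The share of all genes called higher was 25.1% in wild type and 21.3% in cml24-2, where 23.3% were lower. The glucosyltransferase UGT73B4 went from 1.09 and 2.16 to 15.98 and 17.28 FPKM in wild type and from 8.39 and 7.75 to 26.57 and 24.45 FPKM in cml24-2. Its expected counts held split reads in all 8 libraries, so the share given to it is uncertain. UGT74E2, which glucosylates the auxin indole-butyric acid, went from 0.32 and 0.47 to 2.98 and 2.42 FPKM in wild type and from 2.34 and 5.73 to 1.09 and 1.29 FPKM in cml24-2. Its interaction was called (-4.56, SE 0.66, edgeR adjusted p = 0.033). Of the anthocyanin genes, whose pigments GSTF12 carries, 4 of 9 could be tested, and 1 (UGT79B1) was called lower with Al in each genotype, from 13 and 9 counts to 0 and 1 in wild type and from 11 and 5 to 0 and 0 in cml24-2. Over all genes, 25.9% were called lower in wild type and 23.3% in cml24-2.

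The members that were not tested were GSTU3, GSTU15, GSTU21 and GSTF5. GSTU15 (AT1G59670) was not listed in any of the 8 files, which give no gene under 0.01 FPKM. GSTU3 had no counts in the 4 libraries without Al and 2, 2, 2 and 1 in those with Al, all within the floor of 3 counts per library. Where low genes were kept, its change in wild type was called by limma on log2(FPKM + 1) (0.21 on that scale, adjusted p = 0.025) and not by edgeR (adjusted p = 0.12), and no fold is given. GSTU21 had 1 to 5 counts per library and GSTF5 at most 1, and neither was called with Al in those fits.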

How the data were processed

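Total RNA of Arabidopsis roots was sequenced on the BGISEQ-500 platform, per the labels' protocols. The deposited expected counts (estimated reads per gene, not scaled) and the authors' FPKM came from RSEM, per the submitters' processing notes. Version, aligner and build were not given in the sources used here, but for all 13721 genes with a single transcript the deposited length equalled the RefSeq length, so RefSeq's annotation of TAIR10.1 was used for names, order and sequence. Proteins were translated from it and aligned with Biopython 1.88. Genes not listed in a library (under 0.01 FPKM) were taken as 0.

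Expected counts were rounded and tested with edgeR 4.0.16 (R 4.3.3) with TMM factors, filterByExpr, a group-means model of all 8 libraries with 4 residual degrees of freedom, and its quasi-likelihood test, adjusted over 20262 genes at a threshold of 0.05. SEs were derived from the F statistic. The scripts were tested on simulated data. The alternatives were DESeq2 1.42.0, RLE size factors, no filter, a strict filter (1 CPM in 4 libraries), a replicate block, a fit of the libraries compared alone, limma 3.58.1 on log2(FPKM + 1) with and without a filter (1 FPKM in 2 libraries) and on log2(FPKM + 0.1), and each library left out in turn.

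Members and lists were chosen with earlier results of these data known. By rule the text names the 10 largest rises and 5 largest falls with Al per genotype, the 5 most abundant members, members called between genotypes or in the interaction, untested members, and neighbours or relatives of these. The promoter stretches printed were picked after the values were seen.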

Additional observations from a re-analysis of the deposited data

Results flagged for a closer look

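The rise of GSTU22 with Al differed between the genotypes by the test of the difference itself, with an interaction of -2.95 on the log2 scale (SE 0.26, edgeR adjusted p = 0.0026). In levels, its cml24-2 libraries were at 14.75 and 17.94 FPKM without Al against 1.56 and 2.74 FPKM in wild type, and with Al all 4 libraries lay between 125.46 and 129.48 FPKM. GSTU22 was 1 of the 6 members whose wild-type control libraries differed more than 1.5-fold. Without wild-type control replicate 1 or 2 the interaction was still called, and its adjusted p ranged from 7.1e-19 to 0.041 over the 16 alternatives. Groups of 2 libraries are too small for a search for single outlying samples.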

How the results depend on the processing

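No member value reversed a call. Of the 29 wild-type and 27 cml24-2 Al calls, 27 and 23 held under all 17 alternatives. The exceptions were GSTF9 and GSTF12 in wild type and GSTU7, GSTU12, GSTU13 and GSTF12 in cml24-2. Leaving out single libraries gave 21 to 24 higher and 6 to 7 lower in wild type, and 18 to 22 and 5 to 6 in cml24-2.

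On log2(FPKM + 1), which by its pseudocount understates the change of scarce genes, limma gave Al values of 3.39 and 2.14 for GSTU4 in wild type and cml24-2, -2.20 and -1.29 for GSTF13, 1.29 for GSTU16 in wild type, and -4.03 for GSTU14 and 1.28 for GSTU18 in cml24-2, with 0.66 and 0.46 for GSTF12 without a filter, and -1.17 for GSTU14 between genotypes with Al.

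Genotype counts depended on the setting, and the cause was not tested. Without Al (5 higher, 6 lower), the 4 libraries compared alone gave 1 higher, and leaving out libraries gave 2 to 10 higher (10 without wild-type control replicate 2) and 3 to 6 lower (2 higher and 3 lower without cml24-2 control replicate 2). With Al (4 higher, 5 lower), the 4 libraries alone gave 8 lower, limma on log2(FPKM + 0.1) gave 2 higher and 2 lower, limma without a filter 2 higher and 3 lower, and leaving out libraries 0 to 4 higher and 0 to 7 lower. For the interaction (0 higher, 1 lower), no filter and RLE factors each gave 2 lower and DESeq2 3, and leaving out libraries 0 to 1 higher and 1 to 6 lower, the most without wild-type control replicate 2.

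Replicate numbers share no stated culture, and same-numbered libraries did not deviate together (r from -0.17 to 0.14 between groups). With the replicate block, the counts were 23 higher and 7 lower for Al in wild type, 21 and 6 in cml24-2, 6 and 6 between genotypes without Al, 3 and 5 with Al, and 0 and 1 for the interaction. Depth limits GSTU3, GSTU4, GSTU21, GSTF5 and GSTF12, and with 2 libraries a group, differences that were not called are not shown to be absent.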
